A study of Homo sapiens with 2 samples.

Results

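The genes described here make, break down and receive prostaglandins. They are the 10 of the 38606 genes in the count matrix that carry the symbols PTGS1, PTGS2, PTGES, PTGES2, PTGES3, PTGIS, PTGER2, PTGER4, PTGFR and HPGD, and all 10 symbols were present. The choice was made by symbol, for a shared pathway, and with earlier results of these data known. The cells were commercial mesenchymal stem cells derived from human adipose tissue, cultured on dishes almost to confluence and then starved overnight. Single-cell RNA libraries were made by the 10x method from 2 cultures, in which transcripts are counted as unique molecular identifiers (UMIs). The TGFB1 culture received transforming growth factor beta 1 at 10 ng/mL for 24 h, and the untreated culture received none. The labels do not say how long the untreated culture was kept, so time in culture cannot be told apart from treatment. Both cultures were trypsinised and frozen before sequencing. The title of the series places the cells in a study of interleukin 11 and the stroma of melanoma. The starting material is named only as a commercial product, and the labels do not say whether it came from 1 donor or several.

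Each condition is 1 library, so the differences below have no replicate check and no test of the treatment was possible. The intervals are 95% intervals (exact Poisson for a level, exact binomial for a share of cells, exact conditional binomial for a ratio) and cover counting error within these libraries only. There were 8101 untreated cells with 169011524 UMIs and 12555 TGFB1 cells with 208991941 UMIs. A cell had a median of 19250 UMIs untreated and 15130 with TGFB1. To compare shares of cells at 1 depth, each cell was thinned at random to 7500 UMIs, which kept 7646 untreated and 9330 TGFB1 cells. By the authors' clusters, this kept 45 of 1218 TGFB1 cells in cluster 5, 3640 of 5303 in cluster 0 and 2437 of 2543 in cluster 3. Values at equal depth thus cover a changed mix of TGFB1 clusters. The libraries shared 18 cell barcodes. Of the stromal markers, COL1A1 and THY1 were detected in at least 95.7% of cells of each library, whereas ENG, the gene of the endoglin antigen CD105, was detected in 5.21% and 6.09%. A defining marker of leukocytes, of endothelium and of adipocytes was close to 0. In the untreated and the TGFB1 library, PTPRC gave 36 and 74 UMIs, CDH5 2 and 0, and ADIPOQ 0 and 0. Other genes on the lists of markers of other cell types were found in many cells. KRT19 was detected in 86.6% of untreated and 63.8% of TGFB1 cells, and PDGFRB of mural cells in 77.6% and 64.5%. CD68 was detected in 35.4% and 21.85%, PPARG in 28.6% and 8.13%, and ERG in 2.6% and 12.2%. These shares are without thinning. At equal depth they were 78.6% and 53.7% for KRT19, 50.1% and 47.3% for PDGFRB, and 16.9% and 12.2% for CD68. For PPARG they were 13.6% and 4.17%, and for ERG 0.916% and 6.62%. The summed level of the whole marker list was 26.4 CPM untreated and 18.5 with TGFB1 for immune cells (14 genes, nearly all from CD68), and 2.86 and 11.3 for endothelium (11 genes, led by ERG). It was 21.8 and 6.12 for adipocytes (8 genes, nearly all from PPARG), 713 and 274 for epithelium and mesothelium (9 genes, led by KRT19) and 284 and 448 for mural cells (11 genes, led in the TGFB1 library by CSRP1). What these differences contribute to the levels below was not tested.

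Prostaglandins are made from arachidonic acid, which phospholipases free from membranes and which the cyclooxygenases PTGS1 and PTGS2 turn into prostaglandin H2. Terminal synthases then make prostaglandin E2, prostacyclin and other prostanoids, which leave the cell and act on G protein-coupled receptors of the same or neighbouring cells. PTGS1 is regarded as the constitutive form and PTGS2 as the inducible one, whose transcript is unstable. Prostaglandin E2 is among the secreted factors by which mesenchymal stromal cells are known to act on immune cells.

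The sequences upstream of both cyclooxygenases are shown because these were the members with the higher levels in the TGFB1 library. They are the 250 bases before the RefSeq transcript start (GRCh38.p14), 5′ to 3′ on the strand of the gene, with capitals for the letters of a TATA box (TATAAA), the core of a cyclic AMP response element (TGACG) and a C/EBP motif (TTNNGCAA) on either strand. The PTGS2 window is chr1:186680424-186680673 on the minus strand, and the PTGS1 window is chr9:122370283-122370532 on the plus strand. RefSeq gives PTGS1 a second start, whose window (chr9:122375052-122375301) is not printed.
PTGS2: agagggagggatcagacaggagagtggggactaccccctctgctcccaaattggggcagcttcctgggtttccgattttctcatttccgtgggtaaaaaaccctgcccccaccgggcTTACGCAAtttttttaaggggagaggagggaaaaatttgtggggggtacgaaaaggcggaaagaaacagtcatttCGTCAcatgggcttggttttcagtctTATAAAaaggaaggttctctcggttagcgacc
PTGS1: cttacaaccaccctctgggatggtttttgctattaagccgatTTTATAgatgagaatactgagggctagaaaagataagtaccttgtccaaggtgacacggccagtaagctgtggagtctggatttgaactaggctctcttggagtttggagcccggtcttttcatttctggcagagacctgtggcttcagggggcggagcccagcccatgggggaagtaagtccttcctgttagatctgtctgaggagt
The PTGS2 window held TATAAA 32 bases before the start, TGACG on the opposite strand at 58 and TTNNGCAA at 133. Of all 35116 RefSeq windows of this length, 10.7% held the first, 21.2% the second and 9.05% the third. The PTGS1 window held TATAAA on the opposite strand at 208 and neither of the other motifs, and the window of the second PTGS1 start held none of the 3. CAGAC, the letters of a SMAD site, occurred once in the PTGS2 window at 238 bases and in the printed PTGS1 window at 134 and 11, and was absent from the other PTGS1 window, against 38.0% of all windows with at least 1 match. Loose letters of an NF-kB site, GGG and CC with any 5 bases between, occurred in all 3 windows and in 54.4% of all windows, in overlapping matches in the printed ones. An E-box (CANNTG) overlapped the TGACG match of PTGS2, was absent from both PTGS1 windows and was found in 61.8% of windows. The AP-1 letters TGANTCA were in none of the 3 windows and in 6.57% of all. Of the 10 genes, 9 had at least 1 RefSeq window. A match is a run of letters and says nothing about binding.

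The 3′ end of the PTGS2 transcript is shown for the ATTTA pentamer, the core of the AU-rich elements that mark short-lived messages. The 30 bases that follow the stop codon of PTGS2 in GENCODE 29 (chr1:186674323-186674352, minus strand, GRCh38, 3′ untranslated region) held 3 overlapping pentamers, in capitals.
PTGS2 after the stop codon: aagtctaatgatcatATTTATTTATTTAta
The whole region of 2562 bases after the stop held 22 pentamers, or 8.59 per 1000 bases. Over 19219 protein-coding genes the median was 1 pentamer and 1.38 per 1000 bases, and 1.86% of genes held at least as many as PTGS2. Per 1000 bases, the other 9 genes held fewer: PTGER4 6.63, PTGES3 5.28, PTGER2 4.34, HPGD 2.81, PTGFR 2.29, PTGS1 0.950, PTGES 0.781, PTGIS 0.494 and PTGES2 0.

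The libraries differed in opposite directions along the pathway. Both cyclooxygenase transcripts were at higher levels in the TGFB1 library, and the synthases of prostaglandin E2 and prostacyclin that passed a fold of 1.5 were at lower levels. So were PTGER2 and PTGFR, the receptors among the 10 genes that could be measured. Of the 10 genes, 8 reached 5 CPM in either library, where CPM are the UMIs of a gene per 1000000 UMIs of the library. Among these 8, 2 were at least 1.5-fold higher in the TGFB1 library (PTGS1 and PTGS2), beside 8.45% of all 10928 genes at this level. At least 1.5-fold lower were 4 (PTGES, PTGIS, PTGER2 and PTGFR), beside 14.2% of all genes, and 2 lay between (PTGES2 and PTGES3). The median log2 ratio of TGFB1 to untreated was -0.44 over the 8 genes and -0.10 over all genes. With TMM scaling the median over all genes moved to 0.06, and 11.8% of genes were higher and 9.75% lower. With median-of-ratios scaling the median was 0.09, and 12.98% of genes were higher and 8.92% lower. The directions of the 6 genes past 1.5-fold were the same under both scalings, although PTGER2 then fell short of 1.5-fold.

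**Figure D1:**
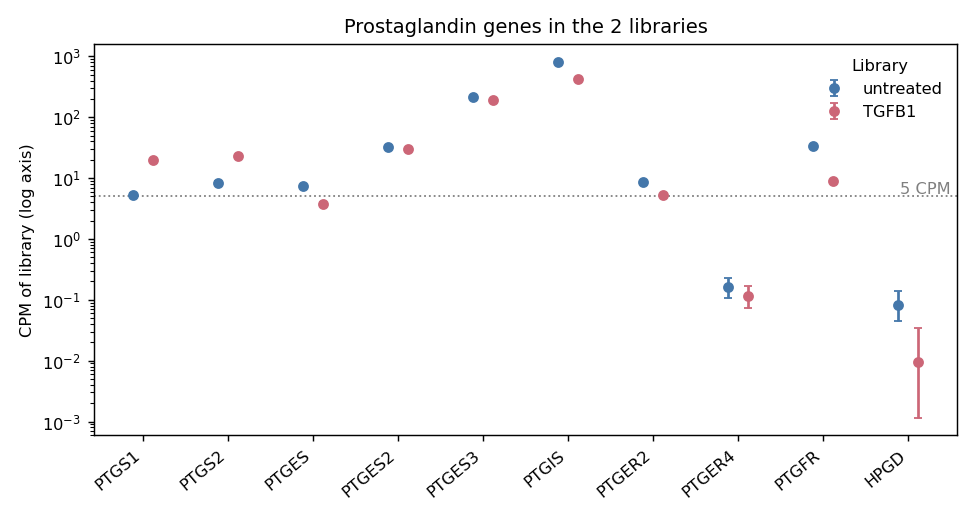
Level of each of the 10 genes in CPM (log axis) in the untreated library (blue) and the TGFB1 library (red), with exact Poisson 95% intervals of the library's count. PTGS1 and PTGS2 lie higher in the TGFB1 library, PTGES, PTGIS, PTGER2 and PTGFR lower, and PTGER4 and HPGD lie below the dotted line at 5 CPM in both.

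PTGS1 (ENSG00000095303, chr9:122370530-122395703, plus strand) encodes cyclooxygenase 1. It gave 905 UMIs untreated and 4211 with TGFB1, or 5.36 CPM (5.01 to 5.71) and 20.2 CPM (19.6 to 20.8). The TGFB1 level was 3.76-fold higher (3.50 to 4.05). PTGS1 was found in 9.93% of untreated and 23.9% of TGFB1 cells, and at equal depth in 3.68% and 13.5%. The difference in level was therefore accompanied by more cells with a PTGS1 UMI, and few cells held many: the highest count in 1 cell was 9 untreated and 7 with TGFB1.

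PTGS2 (ENSG00000073756, chr1:186671791-186680427, minus strand) encodes cyclooxygenase 2. Its level was 8.38 CPM (7.95 to 8.83) untreated, from 1417 UMIs, and 23.0 CPM (22.4 to 23.7) with TGFB1, from 4809 UMIs. The ratio was 2.75 (2.59 to 2.91). Cells with a PTGS2 UMI made up 8.57% of the untreated and 18.1% of the TGFB1 library, and 3.83% and 11.1% at equal depth. As a low reference for these shares, PTPRC, which stromal cells lack, was found at equal depth in 0.170% and 0.214% of cells.

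PTGS2 was uneven from cell to cell in both libraries. After thinning, the variance of PTGS2 UMIs over cells was 2.36 times the mean untreated and 2.66 times with TGFB1, against 1.08 and 1.16 for PTGS1, where counting error alone gives a ratio of 1. The highest count in 1 cell was 53 untreated and 48 with TGFB1. Cells with 10 or more PTGS2 UMIs numbered 21 untreated (0.259%) and 66 with TGFB1 (0.526%), and held 28.6% and 24.9% of all PTGS2 UMIs. The top 1% of cells held 48.8% and 34.1%. Without the cells of 10 or more UMIs, a choice made after their counts were seen, the log2 ratio between the libraries was 1.54 in place of 1.46.

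**Figure D2:**
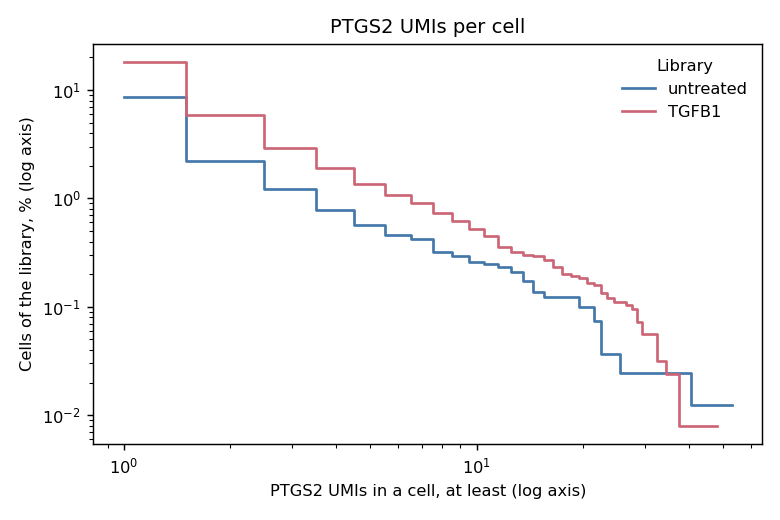
Share of the cells of each library (y axis, percent, log axis) that hold at least a given number of PTGS2 UMIs (x axis, log axis), without thinning. The TGFB1 curve (red) starts at 18.1% and the untreated curve (blue) at 8.57% of cells with at least 1 UMI, and both reach 48 and 53 UMIs in single cells.

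At equal depth, cells with a UMI of either cyclooxygenase were 7.21% (6.64 to 7.81) of the untreated and 22.8% (21.98 to 23.7) of the TGFB1 library. Cells with UMIs of both were 0.301% and 1.85%. PTGS2 was found in 8.19% (5.26 to 12.03) of untreated cells with PTGS1 and in 3.67% (3.25 to 4.12) of those without. In the TGFB1 library the shares were 13.7% (11.8 to 15.7) and 10.7% (10.1 to 11.4). Most cells in which 1 cyclooxygenase was detected thus showed no UMI of the other at this depth, which does not show that they lacked it.

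The terminal synthases of prostaglandin E2 did not share a pattern. PTGES (ENSG00000148344, chr9:129738331-129753047, minus strand), the inducible microsomal synthase usually coupled to PTGS2, stood at 7.42 CPM (7.02 to 7.84) untreated and 3.71 CPM (3.46 to 3.98) with TGFB1. This is 2.00-fold lower (1.83 to 2.19), opposite to PTGS2. PTGES was found in 5.47% of untreated and 2.69% of TGFB1 cells at equal depth. PTGES2 (ENSG00000148334, chr9:128120693-128128462, minus strand), a membrane-associated synthase, stood at 32.1 and 30.4 CPM, a log2 ratio of -0.08 that became 0.08 with TMM and 0.11 with median-of-ratios scaling. PTGES3 (ENSG00000110958, chr12:56663341-56688408, minus strand), known both as the cytosolic synthase and as the HSP90 co-chaperone p23, stood at 214 and 191 CPM, a log2 ratio of -0.17 that became 0.03 with median-of-ratios scaling. The levels of PTGES2 and PTGES3 thus had no direction that held across scalings.

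PTGIS (ENSG00000124212, chr20:49503874-49568146, minus strand) encodes prostacyclin synthase. It gave 137307 UMIs untreated and 90278 with TGFB1, or 812 CPM (808 to 817) and 432 CPM (429 to 435). The TGFB1 level was 1.88-fold lower (1.87 to 1.90). PTGIS was detected in 98.0% of untreated and 86.7% of TGFB1 cells at equal depth, and at least 2 UMIs were found in 92.7% and 70.3%. The TGFB1 library thus held a larger share of cells with no PTGIS UMI and of cells with fewer than 2.

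The receptors PTGFR and PTGER2 were lower in the TGFB1 library. PTGFR (ENSG00000122420, chr1:78303884-78539749, plus strand), the receptor of prostaglandin F2 alpha, which couples to Gq and calcium release, gave 5806 UMIs untreated and 1857 with TGFB1. Its level was 34.4 CPM (33.5 to 35.2) and 8.89 CPM (8.49 to 9.30), 3.87-fold lower with TGFB1 (3.67 to 4.08). PTGFR was found in 21.96% of untreated cells and 6.64% of TGFB1 cells at equal depth. A non-coding gene that overlaps PTGFR on the same strand, MGC27382, gave 19 and 8 UMIs.

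PTGER2 (ENSG00000125384, chr14:52314305-52328606, plus strand) encodes the EP2 receptor of prostaglandin E2, which couples to Gs and raises cyclic AMP. It stood at 8.57 CPM (8.13 to 9.02) untreated and 5.24 CPM (4.93 to 5.56) with TGFB1, 1.64-fold lower (1.51 to 1.77). Of its untreated UMIs, 31.0% came from a single cluster of cells with high MKI67 and TOP2A, genes of dividing cells. Without all cells that held an MKI67 or TOP2A UMI the levels were 6.76 and 5.07 CPM, 1.33-fold lower, so that the fold of 1.5 was no longer reached. It was 1.47-fold lower with TMM scaling and 1.43-fold with median-of-ratios scaling.

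PTGER4 and HPGD were near the limit of detection. PTGER4 (ENSG00000171522, chr5:40679498-40693735, plus strand), the EP4 receptor, which also couples to Gs, gave 27 UMIs untreated and 24 with TGFB1, or 0.160 and 0.115 CPM. The interval of the ratio, 0.397 to 1.29, holds 1, and no difference was detectable at this depth. PTGER4 lies within the span of TTC33 on the opposite strand, which gave 2507 and 2729 UMIs. No source used here says whether the counting used strand, so reads of the pair may have been exchanged. HPGD (ENSG00000164120, chr4:174490177-174523154, minus strand), the dehydrogenase that starts the breakdown of prostaglandins, gave 14 UMIs untreated and 2 with TGFB1. That is 0.0828 and 0.00957 CPM, 8.66-fold lower with TGFB1 with an interval from 1.99 to 78.5. The fold was 3.66 after thinning and 3.51 without cells that held an MKI67 or TOP2A UMI. In the untreated library 12 of 8101 cells held an HPGD UMI.

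The levels were next described over the clusters given in the authors' cell table, for the 5 untreated and 8 TGFB1 groups with at least 100 cells. The clusters were made from the same counts, so these are descriptions. Only clusters 7 and 9 held at least 100 cells of both libraries. PTGS2 had the widest spread of the 8 measured genes. In the untreated library it was 78.7 CPM (72.2 to 85.7) in cluster 7 and between 3.54 and 8.64 CPM in clusters 1, 2, 6 and 9. Cluster 7 was 3.38% of untreated cells and held 38.0% of their PTGS2 UMIs. In the TGFB1 library PTGS2 was 129.9 CPM (121 to 139) in cluster 7, 66.9 in cluster 9 and 45.6 in cluster 10. It was 33.7 CPM in cluster 5 and 27.9 in cluster 0, the largest, and from 8.38 to 15.7 CPM in clusters 3, 8 and 4. Cluster 5 is a cluster of low RNA content, with a median of 2571 UMIs per cell.

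The order of the TGFB1 clusters by PTGS2 was unlike their order by IL11. IL11 was 73.0 to 79.0 CPM in clusters 7, 9 and 10, which had the highest PTGS2, and 160 to 231 CPM in clusters 4, 3 and 8, which had the lowest. Clusters 0 and 5 lay between in both. This was not so at the top of the untreated library. There cluster 7 had the highest PTGS2 and also the highest IL11, at 8.18 CPM from 56 UMIs. The other untreated groups had 2.03 to 4.08 CPM of IL11.

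**Figure D3:**
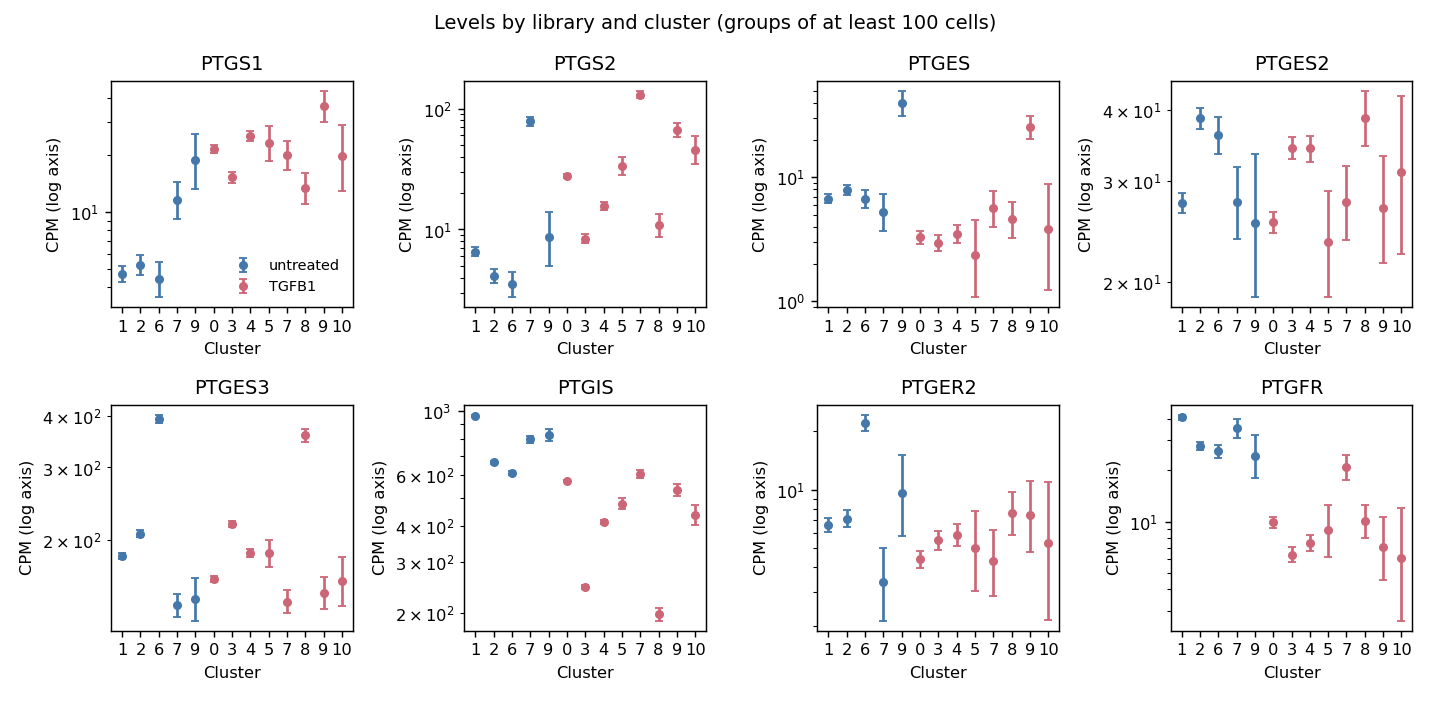
Level of the 8 genes that reached 5 CPM, in CPM (log axis), by cluster (x axis) in the untreated library (blue) and the TGFB1 library (red), for groups of at least 100 cells, with exact Poisson 95% intervals. PTGS2 stands highest in cluster 7 of both libraries, PTGES in cluster 9 of both, PTGER2 in untreated cluster 6 and PTGES3 in clusters 6 and 8.

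Within cluster 7 the ratios of PTGS1, PTGS2, PTGIS, PTGFR and PTGES lay nearer 1 than over the whole libraries, a difference that was not tested. PTGS2 was 1.65-fold higher with TGFB1 (1.48 to 1.84) and PTGS1 1.74-fold higher, at 11.5 and 20.1 CPM (1.31 to 2.33). PTGIS was 1.32-fold lower (1.27 to 1.37) and PTGFR 1.70-fold lower (1.38 to 2.12). PTGES, at 5.26 and 5.67 CPM, showed no detectable difference in this cluster, with a ratio of 1.08 (0.662 to 1.75). Within cluster 9, PTGS2 was 8.64 CPM untreated and 66.9 with TGFB1, 7.75-fold higher (4.73 to 13.6), from 17 and 216 UMIs. These UMIs came from few cells, 6.48% of 108 untreated and 22.4% of 183 TGFB1 cells. The interval does not cover the unevenness of PTGS2 from cell to cell. PTGS1 was 1.93-fold higher (1.32 to 2.87), PTGES 1.56-fold lower (1.13 to 2.15), PTGIS 1.55-fold lower (1.44 to 1.66) and PTGFR 3.42-fold lower (2.04 to 5.89). The directions of these 5 genes in cluster 9 were those of the whole libraries.

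PTGES marked cluster 9 in both libraries. It was 39.6 CPM (31.3 to 49.4) there in the untreated library, against 5.26 to 7.87 CPM in the other 4 groups, and 25.4 CPM (20.2 to 31.5) in the TGFB1 library, against 2.37 to 5.67 CPM in the other 7. Cluster 9 was 1.33% and 1.46% of the cells and held 6.22% and 10.6% of the PTGES UMIs. PTGS1 was also highest in cluster 9, at 18.8 CPM untreated and 36.3 CPM with TGFB1. Its lowest TGFB1 group, cluster 8 at 13.4 CPM (11.0 to 16.1), nevertheless lay above untreated clusters 1, 2, 6 and 7. The interval overlapped that of untreated cluster 7, at 11.5 CPM (9.14 to 14.4).

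PTGIS was present in every group and ranged less among untreated clusters, from 609.6 CPM in cluster 6 to 959.7 in cluster 1, than among TGFB1 clusters, from 198 in cluster 8 and 246 in cluster 3 to 604 in cluster 7. The highest TGFB1 group (586 to 623 CPM) and the lowest untreated group (599 to 620.5 CPM) had overlapping intervals. The TGFB1 groups of PTGFR ran from 6.08 to 20.8 CPM (17.5 to 24.6 in cluster 7) and its untreated groups from 24.4 (18.0 to 32.3 in cluster 9) to 40.9 CPM, so the intervals of the nearest groups overlapped. PTGER2 was 22.1 CPM (20.1 to 24.2) in untreated cluster 6, where MKI67 and TOP2A summed to 605 CPM, and 3.36 to 9.65 CPM in the other 4 untreated groups. In TGFB1 cluster 8, where MKI67 and TOP2A summed to 382 CPM, PTGER2 was 7.58 CPM (5.83 to 9.70), beside 4.29 to 7.44 CPM in the other 7 groups, so its interval overlapped theirs in part. PTGES3 was highest in the same clusters, at 394 CPM in untreated cluster 6 and 359.6 CPM in TGFB1 cluster 8, and PTGES2 varied 1.52-fold among the untreated and 1.65-fold among the TGFB1 groups.

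Cells with and without a PTGS2 UMI were compared within each library at equal depth, 293 with 7353 untreated cells and 1039 with 8291 TGFB1 cells. Before thinning, their median UMIs per cell were 21120 and 19720 untreated, and 17240 and 18910 with TGFB1. Within the largest cluster of each library the medians were 21140 and 21900 untreated, and 15160 and 18480 with TGFB1. Whether this bears on the ratios was not tested. PTGS1 was 11.4 CPM in untreated cells with PTGS2 and 4.88 CPM in those without, a ratio of 2.33 (1.48 to 3.52), and 27.0 and 20.1 CPM in TGFB1 cells, a ratio of 1.34 (1.15 to 1.55). Within the largest cluster of each library the PTGS1 ratios were 1.30 (0.468 to 2.93) and 1.20 (0.961 to 1.49), whose intervals hold 1. PTGES had a ratio of 0.992 (0.573 to 1.61) untreated and 1.47 (1.03 to 2.06) with TGFB1. Within the largest cluster the PTGES ratios were 1.015 (0.432 to 2.04) and 1.37 (0.770 to 2.32), whose intervals hold 1. PTGIS was slightly higher in cells with PTGS2, 1.14-fold and 1.21-fold, and PTGES3 lower, with ratios of 0.804 and 0.865, both with intervals that leave out 1. Within the largest cluster the ratios were 1.12 and 0.989 for PTGIS and 0.895 and 1.006 for PTGES3, so that neither kept its direction in both libraries. PTGER2 had ratios of 1.69 (1.15 to 2.41) and 1.30 (0.952 to 1.74), and within the largest cluster 1.11 (0.498 to 2.15) and 1.66 (1.01 to 2.61). In untreated cells with at least 2 PTGS2 UMIs the PTGER2 ratio was 0.819 (0.168 to 2.41), from 3 UMIs. IL11, chosen for the topic of the study, had a ratio of 2.70 (1.53 to 4.46) untreated, from 17 UMIs in cells with PTGS2, and 1.08 (1.02 to 1.15) with TGFB1. Within the largest cluster the IL11 ratios were 2.42 (0.936 to 5.26), whose interval holds 1, and 1.15 (1.04 to 1.27). For cells with at least 2 PTGS2 UMIs they were 5.92 (2.34 to 12.5), from 7 UMIs, and 1.29 (1.16 to 1.44).

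Over the 5806 other genes at 20 CPM or more in both libraries, 12 (0.207%) were at least 1.5-fold higher in cells with PTGS2 in both libraries and 0 (0%) were at least 1.5-fold lower. The 6 genes with the highest ratios, by the smaller of the libraries, were SFRP4, POSTN, EFEMP1, IGFBP7, TIMP3 and SCRG1. SFRP4, a secreted Wnt antagonist, was 4.31-fold higher untreated and 3.34-fold with TGFB1. POSTN, the matrix protein periostin, was 2.70-fold and 3.06-fold higher. TIMP3, an inhibitor of metalloproteinases, was 2.90-fold and 1.68-fold higher. EFEMP1, IGFBP7 and SCRG1 had ratios between 1.68 and 1.99. SFRP4 was 882.8 CPM in untreated cluster 7 and 737.7 CPM in TGFB1 cluster 7, where PTGS2 was highest. In the largest cluster of each library it was 28.8 and 41.1 CPM. High SFRP4 was not limited to groups with high PTGS2. In untreated cluster 9 SFRP4 was 674.6 CPM and PTGS2 8.64 CPM, and in TGFB1 cluster 9 they were 312.9 and 66.9 CPM. POSTN was likewise high in untreated cluster 9, at 2841 CPM, beside 2512 CPM in untreated cluster 7. Within the largest cluster the ratios were 2.16 (1.64 to 2.79) and 1.85 (1.60 to 2.13) for SFRP4 and 1.94 (1.74 to 2.16) and 1.70 (1.59 to 1.82) for POSTN. There the ratios of the other 4 genes were below 1.5 in both libraries, from 1.22 for EFEMP1 untreated to 1.39 for TIMP3 untreated, the TGFB1 values running from 1.20 for TIMP3 to 1.27 for IGFBP7. The 6 genes with the lowest ratios were PTTG1, STMN1, NUDT1, CKS2, CKS1B and CSRP1, at 0.628 to 0.779. PTTG1, CKS2 and CKS1B act in the cell cycle. Within the largest cluster PTTG1 and CKS2 had ratios from 1.098 to 1.37 over both libraries, with intervals that all held 1. CKS1B was at 0.833 (0.5245 to 1.26) and 0.752 (0.560 to 0.993) there, and STMN1 at 0.818 (0.622 to 1.06) and 0.943 (0.798 to 1.11). NUDT1 was at 0.635 (0.405 to 0.9515) and 0.964 (0.752 to 1.22), and CSRP1 at 0.850 (0.6255 to 1.13) and 0.859 (0.798 to 0.924). Among these, the interval left out 1 only for NUDT1 untreated and for CKS1B and CSRP1 with TGFB1.

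**Figure D4:**
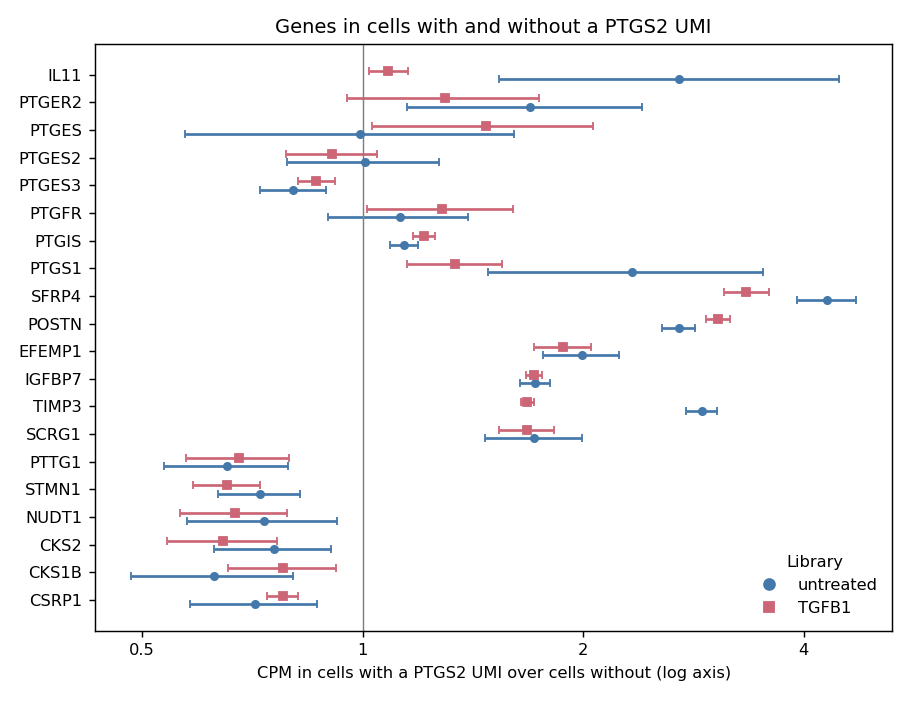
Ratio of the level in cells with a PTGS2 UMI to that in cells without (x axis, log axis), at equal depth, for members of the pathway, IL11 and the 12 genes with the most extreme ratios, with exact conditional binomial 95% intervals for the untreated (blue circles) and the TGFB1 library (red squares). SFRP4 and POSTN lie farthest to the right in the TGFB1 library, and IL11 lies at 2.70 untreated and 1.08 with TGFB1.

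The genes most alike to 4 of the members over the 13 groups of library and cluster were found by Pearson's r of log2(CPM + 1). The groups of a library share cells of 1 culture and 1 library preparation, so r is a description. PTGS1 was most like SCD, the stearoyl-CoA desaturase (r = 0.97), followed by TGFBI, INSIG2 and ATOSB (0.93 to 0.94). PTGS2 was most like PCSK5, a proprotein convertase (0.94), followed by RCAN1, KIAA1191 and PVR (0.92 to 0.93). PCSK5 reached 128 CPM in TGFB1 cluster 7 and was lowest, at 2.77 CPM, in untreated cluster 2. PTGES was most like F2R, the thrombin receptor (0.93), then C14orf132, ANGPTL2 and PROCR (0.89 to 0.90). PTGIS was most like RDH10, a retinol dehydrogenase (0.96), then MME, DPP4 and the interleukin 1 receptor gene IL1R1 (0.95 to 0.96). Among the TGFB1 groups alone r was 0.98 for PTGS2 with PCSK5 and for PTGIS with RDH10, but 0.47 for PTGS1 with TGFBI. Among the 5 untreated groups alone it was 0.93, 0.61 and 0.96 for these pairs.

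The rest of the prostanoid pathway was read from a list of 34 other genes, of which 32 were in the matrix and 16 reached 5 CPM. At least 1.5-fold lower in the TGFB1 library were 8 (14.2% of all genes were), and 1 was higher (8.45% of all genes were). The median log2 ratio was -0.57 beside -0.10 over all genes. With TMM or median-of-ratios scaling 6 were lower, without PTGR2 and PTGR3, and 1 higher. Of all genes, 9.75% were lower and 11.8% higher with TMM, and 8.92% and 12.98% with median-of-ratios scaling. Upstream of the cyclooxygenases, PLA2G4A, the cytosolic phospholipase that frees arachidonic acid, was 10.2 CPM untreated and 3.36 CPM with TGFB1. PLA2G4A lies 148525 bases from PTGS2 on chromosome 1 (chr1:186828953-186988981, plus strand), and the neighbours thus differed in opposite directions. PLA2G4C was 12.1 and 5.50 CPM, and PLAAT3, a phospholipase of adipose tissue, 85.3 and 43.6 CPM. ACSL4, a ligase that joins arachidonic acid to coenzyme A, was the gene at a higher level, 63.2 and 106 CPM.

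Downstream, AKR1C3, a reductase that can make prostaglandin F2 alpha, was 61.0 CPM untreated and 10.8 CPM with TGFB1, the lowest ratio of the list. The prostaglandin reductase PTGR1 was 112 and 51.7 CPM, and PTGR2 was 6.42 and 3.87 CPM and PTGR3 51.3 and 33.3 CPM. SLCO3A1, a transporter that carries prostaglandins, was 55.0 and 25.6 CPM, while ABCC4, which exports them, was 27.8 and 26.3 CPM. AKR1B1, another reductase that can make prostaglandin F2 alpha, was 87.2 and 61.1 CPM. Of the 10 list genes at 20 CPM or more in both libraries, only AKR1B1 was at least 1.5-fold higher in cells with PTGS2 in both. Beside it, 12 of all 5806 genes at this level (0.207%) were. Whether the AKR1B1 difference held within the largest cluster was not checked. Of the other prostanoid receptors, PTGER3, the Gi-coupled EP3 receptor, was 23.1 and 17.2 CPM. PTGER1, PTGIR, PTGDR and TBXA2R stayed under 5 CPM and differed in direction. PTGIR, the prostacyclin receptor, was 4.27 CPM untreated and 4.94 with TGFB1. TBXA2R was 2.31 and 3.31 CPM, 1.43-fold higher with TGFB1 (1.26 to 1.62). PTGER1 was lower, at 3.12 and 1.79 CPM, as was PTGDR, at 2.54 and 1.09 CPM. PTGDS and HPGDS, the prostaglandin D synthases, gave at most 62 UMIs in a library.

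**Figure D5:**
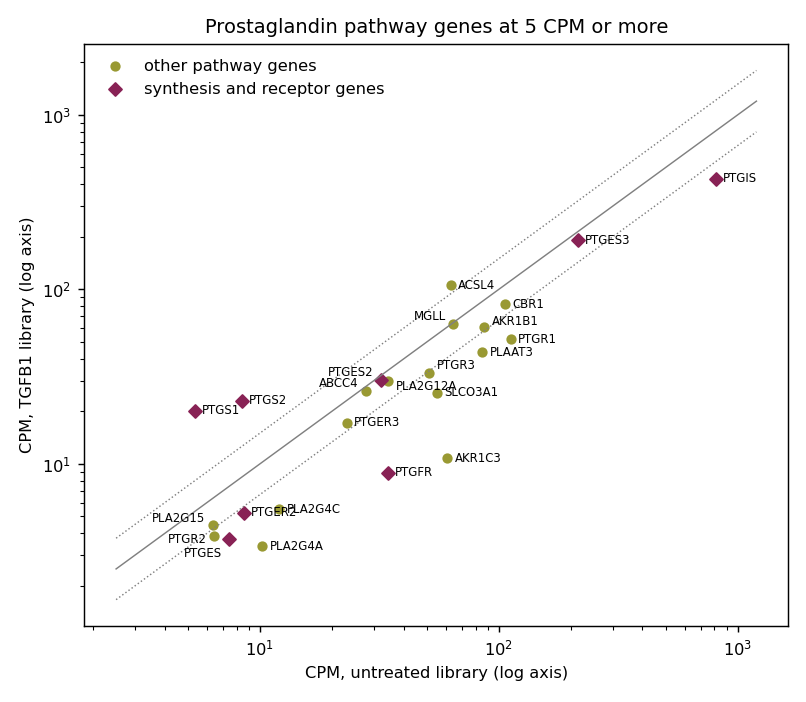
Level in the TGFB1 library (y axis, CPM, log axis) against the untreated library (x axis, CPM, log axis) for the 8 synthesis and receptor genes (diamonds) and 16 other pathway genes (circles) at 5 CPM or more, 1 library each. The solid line marks equal levels and the dotted lines a ratio of 1.5; PTGS1, PTGS2 and ACSL4 lie above them, and PTGFR and AKR1C3 lie farthest below.

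The lipoxygenase branch, which also uses arachidonic acid, had 4 of 18 genes at 5 CPM, 1 higher and 3 lower, beside 8.45% and 14.2% of all genes. ALOX5AP, the protein that presents arachidonic acid to the lipoxygenase, was 1.72 CPM untreated and 5.50 CPM with TGFB1, but ALOX5 itself gave 1 and 5 UMIs. LTA4H, GPX4 and EPHX1 were past 1.5-fold lower, GPX4 at 629 and 295 CPM. LTA4H, at 33.3 and 19.9 CPM, fell short with median-of-ratios scaling.

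Signalling partners of the prostanoid receptors (22 of 26 at 5 CPM) were past 1.5-fold higher for 2 and lower for 5, beside 8.45% and 14.2% of all genes, with a median log2 ratio of 0.07. With either other scaling 4 were higher, with CREM and PDE4D added, and 3 lower, without ADCY3 and PRKAR2B. Of all genes, 11.8% were higher and 9.75% lower with TMM, and 12.98% and 8.92% with median-of-ratios scaling. PLCB4, a phospholipase C that Gq activates, was 33.8 CPM untreated and 92.1 with TGFB1, whereas PLCB1 was 249 and 137 CPM. The adenylyl cyclase ADCY7 was 11.2 and 23.5 CPM. The cyclic AMP phosphodiesterases PDE4B and PDE7B were 57.1 and 20.1 CPM and 43.9 and 24.0 CPM. GNAS, the Gs subunit, was 872 and 926 CPM. Of 25 known target genes of cyclic AMP and CREB, 15 reached 5 CPM. Of these, 2 were higher and 3 lower, beside 8.45% and 14.2% of all genes, and the median log2 ratio was 0.22. This count depended on scaling: with either of the others 7 were higher, with NR4A2, NR4A3, CREM, PDE4D and IL6 added, and 1 was lower. The shares of all genes beside it were again 11.8% and 9.75% with TMM, and 12.98% and 8.92% with median-of-ratios scaling. NR4A1 was 6.39 and 21.7 CPM and DUSP1 74.9 and 169 CPM, while SST was 9.76 and 5.93 CPM and ICAM1 16.1 and 10.4 CPM.

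Known regulators of PTGS2 and PTGES transcripts (23 of 27 at 5 CPM) were past 1.5-fold higher for 3 and lower for 7, again beside 8.45% and 14.2% of all genes, with a median log2 ratio of -0.41. With either other scaling 3 were higher and 5 lower, without CEBPD and IL1B. Beside these, 11.8% of all genes were higher and 9.75% lower with TMM, and 12.98% and 8.92% with median-of-ratios scaling. The higher genes were DUSP1, which dampens MAP kinases, TSC22D3, a glucocorticoid target at 15.5 and 29.5 CPM, and HIF1A at 419 and 677 CPM. Among the lower genes were 2 that encode proteins which bind AU-rich elements and speed decay, ZFP36 at 37.1 and 15.9 CPM and ZFP36L2 at 50.5 and 13.3 CPM. The related ZFP36L1 was 435 and 322 CPM. ELAVL1, which stabilises such messages, was 44.2 and 44.3 CPM. IL1R1 was 218 CPM untreated and 90.7 with TGFB1, and NFKBIA, the inhibitor of NF-kB, 43.5 and 21.5 CPM. The interleukin 1 beta gene IL1B was 19.2 and 12.4 CPM. Whether any of these differences bears on the level of PTGS2 was not tested. PACERR, a non-coding RNA that starts beside PTGS2 on the opposite strand, gave 116 and 138 UMIs.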

How the data were processed

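The authors' deposited matrix gives raw UMI counts for each gene in each cell, and the deposited cell table gives counts of UMIs and genes, the percent of UMIs from mitochondrial genes, the library and the cluster of each cell at resolution 0.4. Cell Ranger 9.0.1, Seurat and GRCh38 are named in the submitters' processing notes. No source used here names the annotation. Cell sums of the matrix equalled the table's totals in all 20656 cells. No sample column was left unmapped. No doublet caller was run, so doublets may be present, and free RNA was not removed.

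UMIs were summed per library, or per library and cluster of at least 100 cells, and divided by the total to give CPM. A gene was measured if it reached 5 CPM in 1 of the libraries, and was called at a difference of 1.5-fold or more. With 1 library a condition no p-value was computed. Cells were thinned without replacement to 7500 UMIs for shares and for the comparison by PTGS2. Gene positions and the regions after stop codons came from GENCODE 29, upstream windows from RefSeq, and motifs were searched on both strands. The 10 genes, 10 gene lists and cell type markers were chosen with earlier results of these data known. Named were all 10 members, up to 5 measured genes of a list by absolute log2 ratio, the 4 genes most like PTGS1, PTGS2, PTGES and PTGIS, and 6 genes each way in the comparison by PTGS2. Other list genes were named for their role, after their values were seen. Alternatives were other scalings, cell filters, minimum levels and thinning depths. The calculation was tested on simulated data for TGFB1 against untreated cells over 10559 genes: all 200 genes changed 4-fold passed 1.5-fold, 0 unchanged ones did, and intervals held the true ratio for 94.7%. The simulated library sums were Poisson counts, which is what the intervals assume, without variation between cells or cultures. The simulation therefore checks the arithmetic and not how far the calls would hold in other cultures. Software was R 4.3.3 with edgeR 4.0.16 (TMM factors only) and Python 3.11.15 with pandas 2.3.3, scipy 1.17.1, matplotlib 3.10.9 and numpy 2.4.6.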

Additional observations from a re-analysis of the deposited data

How the results depend on the processing

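No paired analysis was possible because each condition has 1 library, and for the same reason no replicate could be left out. Under TMM and median-of-ratios scaling, thinning, equal weight for each cell, a filter at 1000 genes, and leaving out cluster 5, clusters 7, 9 and 10, or cells with an MKI67 or TOP2A UMI, 2 genes were at least 1.5-fold higher. The count of lower genes was 4, but 3 under both scalings and without the MKI67 or TOP2A cells, where PTGER2 fell short, and 2 when a minimum of 20 CPM in either library also left out PTGES and PTGER2. The log2 ratio ran from 1.91 to 2.10 for PTGS1, 1.40 to 1.79 for PTGS2, -1.11 to -0.81 for PTGES, -0.94 to -0.72 for PTGIS, -0.75 to -0.42 for PTGER2 and -2.03 to -1.76 for PTGFR. PTGES2 and PTGES3 changed direction as given above, and PTGER4 reached 0.45 when thinned. HPGD, at most 14 UMIs, ran from -3.14 to -1.81. With either other scaling, added after seeing the data, the count of receptor signalling partners became 4 higher and 3 lower in place of 2 and 5, and that of cyclic AMP and CREB targets 7 and 1 in place of 2 and 3. In untreated cells, counting only cells with at least 2 PTGS2 UMIs against none turned the log2 ratio of PTGER2 from 0.76 to -0.29; the cause was not tested, and the latter rests on 3 UMIs. Depth limits PTGER4 and HPGD, where the untreated library gave 27 and 14 UMIs.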
